A study of Saccharomyces cerevisiae with 16 samples.

Results

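The amino acid permeases of the SPS response were examined in budding yeast mutants that the study describes as unable to oscillate the pH of the vacuole. The set holds 10 genes of the 6844 in the files, taken by systematic name: AGP1 (YCL025C), GNP1 (YDR508C), BAP2 (YBR068C), BAP3 (YDR046C), TAT1 (YBR069C), TAT2 (YOL020W), DIP5 (YPL265W), PTR2 (YKR093W), SSY1 (YDR160W) and LYP1 (YNL268W). RNA was sequenced from 3 single-deletion mutants, atg18∆ (the negative regulator of the Fab1 lipid kinase complex removed), fab1∆ (the kinase itself) and vph1∆ (the vacuolar subunit of the proton pump, the v-ATPase), and from wild-type cells. Each of the 4 strains had 4 libraries, 16 in all. Haploid cells of the DHY series, which all carry repaired SAL1+ and HAP1+ alleles and variants of CAT5, MIP1, MKT1, RME1 and TAO3, were grown at room temperature in SDC, a synthetic complete medium that contains amino acids, to an OD600 of 0.05, in 2 cultures on each of 2 days. Genes were deleted with a NatMX cassette, the labels do not say which replicates shared a day, and they do not say whether a strain was more than 1 segregant. All 10 genes had a mean of at least 1 TPM (a length-corrected share of the transcripts of a library) and were tested with 6404 genes in total.

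Yeast cells sense amino acids outside the cell with the SPS complex of Ssy1, Ptr3 and Ssy5. When Ssy1, a plasma membrane protein of the permease family that does not itself feed the cell, meets an amino acid, the protease Ssy5 clips the factors Stp1 and Stp2, which then enter the nucleus and switch on permease genes. In medium that holds amino acids this response is known to be active, but its activity was not measured here. Transcript levels in bulk RNA do not separate a change in every cell from a change in some of the cells.

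The labels were first checked against the deleted genes. ATG18 lay at 0 to 0.0106 TPM in atg18∆ libraries, against 3.27 to 12.8 TPM in the 12 others, and VPH1 at 0 to 0.191 TPM in vph1∆ libraries, against 42.3 to 118 TPM in the 12 others. FAB1 was lower in the libraries labelled fab1∆ than in any other, but was not at 0 there, with 1.28 to 1.58 TPM against 1.77 to 3.55 TPM in the 12 others. Whether part of the gene remained was not tested. Wild-type replicate 3 stood apart: its 10 most abundant genes took 31.2% of the TPM, against 14.4 to 15.9% in the other 15 libraries.

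All 10 members had their lowest value of the 16 libraries in wild-type replicate 3, where they stood at 31.4 to 43.3% of the mean of wild-type replicates 1, 2 and 4. The same was true of 5467 of all 6404 genes tested, 85.4% of them. Across all genes the shortfall went with length. Genes with a coding length under 600 bases had a median of 80.0% of the other wild-type libraries, genes of 600 to 1200 bases 53.4% and genes of 1800 to 2600 bases 43.2%, and the members have 1779 to 2559 coding bases. Apart from PTR2, at 43.3%, each member was under the median of its length class. TAT2, with 1779 bases, was at 34.8%, against 45.2% for genes of 1200 to 1800 bases. SHR3, a short gene of 633 bases whose product lets permeases leave the endoplasmic reticulum, was at 96.4%, above the median of its length class, whereas CUP9, with 921 bases, was at 37.2%. The study's methods state that a wild-type sample was dropped for poor RNA quality and do not name it. RNA quality was not among the measurements used here, and its part in the low values was not tested. The library raised every member's fold change against wild type and widened the spread shared by all comparisons, so the main results are given with all 16 libraries and without it. With it, the 6404 genes had a median log2 fold change of 0.27 for atg18∆, 0.25 for fab1∆ and 0.27 for vph1∆, and without it of 0.05, 0.07 and 0.06.

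**Figure D1:**
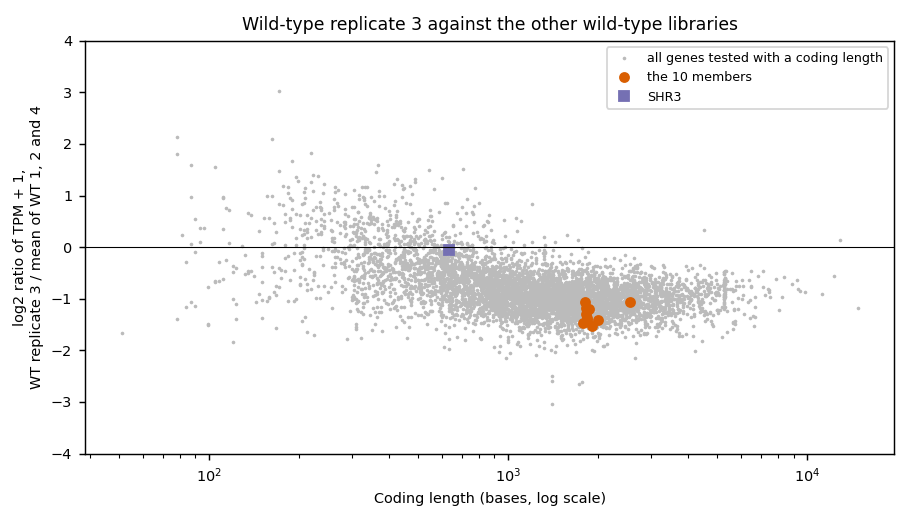
The log2 ratio of TPM + 1 in wild-type replicate 3 to the mean of wild-type replicates 1, 2 and 4 is plotted against coding length in bases (log scale), 1 point per gene tested that has a coding length. The 10 members (orange) lie well under 0, at 31.4 to 43.3% of the other libraries in TPM, while SHR3 (purple square) lies near 0 at 96.4%.

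The 10 members have different substrates and sequences. Agp1 takes up many amino acids, Gnp1 is the high-affinity glutamine permease, Bap2 and Bap3 take up leucine, isoleucine and valine, Tat1 takes up tyrosine and branched-chain amino acids, Tat2 is the high-affinity tryptophan permease, Dip5 carries glutamate and aspartate, and Lyp1 carries lysine. Ptr2 is a transporter of di- and tripeptides and belongs to another protein family. Among the encoded proteins the closest pairs were Bap2 and Bap3, identical at 73.7% of 600 aligned residues, and Agp1 and Gnp1, at 68.5% of 631. Reads that fall in shared stretches cannot be assigned to 1 gene with certainty. Of 1872 words of 31 bases in AGP1, 17 also occurred in GNP1, and of 1806 in LYP1, 28 occurred in ALP1, and the other members shared none with another coding sequence.

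BAP2 (chrII:373861-375690) and TAT1 (chrII:376574-378433) are neighbours on the reverse strand in the R64 (sacCer3) genome. Upstream sequences were searched for CGGC, a core of Stp1-type elements, on either strand, and overlapping copies were all counted. In the 250 bases before to 50 after the start codon, only AGP1 and LYP1 had it, with 2 copies each, and 47.8% of 6026 such windows in the genome had at least 1. Farther out, from 500 to 251 bases before the start codon, TAT1 had 7 copies, BAP2 and BAP3 had 6 each, GNP1 5, TAT2 and SSY1 3 each, AGP1 2, PTR2 1, and DIP5 and LYP1 none. At least 3 copies occurred in 6.85% of all windows of this span, at least 5 in 0.946% and at least 6 in 0.349%. This span was chosen after the promoter-proximal window had been seen, and in SSY1 and LYP1 it covers 120 and 45 coding bases of a neighbouring gene. The longer form CGGCTC, which contains CGGC, occurred in this span once in BAP2 and 2 times in BAP3, against 4.08% of all windows. Of other nutrient elements in the whole 500 bases, TGACTC, the site of Gcn4, was found in AGP1 and BAP2 (12.6% of all windows), and GATAAG, a site type of nitrogen-regulated GATA factors, in AGP1, PTR2 and SSY1 (22.7%). A match is a description and not evidence of binding. The members called in a mutant with all 16 libraries were BAP2, with 6 copies, PTR2, with 1, and DIP5, with none. The spans of DIP5, PTR2 and the 4 permeases with the most copies, BAP2 among them, are shown. They run from the 5′ end at 500 bases before the start codon, with CGGC and its complement GCCG in capitals. They lie at chrIV:1468695-1468944, reverse strand (GNP1), chrII:375941-376190, reverse strand (BAP2), chrIV:550827-551076, reverse strand (BAP3), chrII:378684-378933, reverse strand (TAT1), chrXVI:40543-40792, forward strand (DIP5) and chrXI:615230-615479, forward strand (PTR2) of R64.
GNP1: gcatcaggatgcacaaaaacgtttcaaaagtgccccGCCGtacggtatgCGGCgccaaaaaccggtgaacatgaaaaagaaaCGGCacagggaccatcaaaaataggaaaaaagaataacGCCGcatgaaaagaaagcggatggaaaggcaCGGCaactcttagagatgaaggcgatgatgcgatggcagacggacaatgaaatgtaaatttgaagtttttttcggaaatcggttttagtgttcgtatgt
BAP2: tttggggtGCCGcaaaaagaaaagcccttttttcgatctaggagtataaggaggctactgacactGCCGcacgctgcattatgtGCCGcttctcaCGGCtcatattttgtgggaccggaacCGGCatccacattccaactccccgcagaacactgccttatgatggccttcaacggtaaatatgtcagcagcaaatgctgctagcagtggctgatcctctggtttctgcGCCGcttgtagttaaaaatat
BAP3: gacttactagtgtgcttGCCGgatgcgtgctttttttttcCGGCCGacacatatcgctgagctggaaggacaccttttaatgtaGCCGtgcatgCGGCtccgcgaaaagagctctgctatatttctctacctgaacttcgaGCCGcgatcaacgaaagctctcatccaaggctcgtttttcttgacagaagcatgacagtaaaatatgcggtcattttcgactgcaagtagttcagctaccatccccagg
TAT1: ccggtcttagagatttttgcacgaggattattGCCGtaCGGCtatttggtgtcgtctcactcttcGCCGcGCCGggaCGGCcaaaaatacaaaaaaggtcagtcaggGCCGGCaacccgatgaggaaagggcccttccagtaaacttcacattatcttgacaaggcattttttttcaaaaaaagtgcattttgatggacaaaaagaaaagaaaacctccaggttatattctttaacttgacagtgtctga
DIP5: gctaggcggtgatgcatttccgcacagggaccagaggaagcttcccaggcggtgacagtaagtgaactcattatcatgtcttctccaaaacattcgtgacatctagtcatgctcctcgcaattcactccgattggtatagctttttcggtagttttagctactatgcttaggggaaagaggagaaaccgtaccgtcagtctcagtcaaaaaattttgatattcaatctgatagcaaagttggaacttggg
PTR2: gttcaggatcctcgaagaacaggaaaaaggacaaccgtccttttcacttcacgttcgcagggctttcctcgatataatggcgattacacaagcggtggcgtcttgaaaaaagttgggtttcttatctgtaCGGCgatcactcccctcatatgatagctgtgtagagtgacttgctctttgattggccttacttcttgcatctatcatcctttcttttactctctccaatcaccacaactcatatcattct

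**Figure D2:**
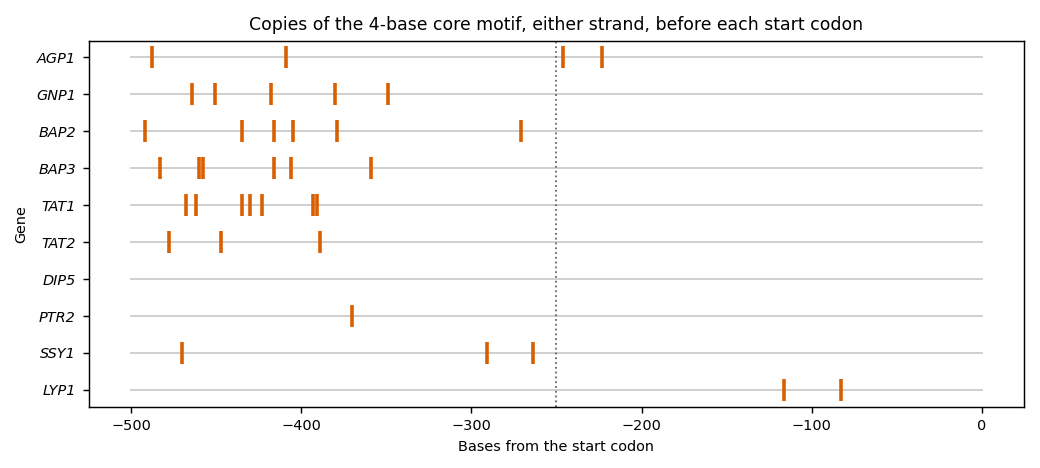
Each bar marks a copy of the 4-base core on either strand, by its distance in bases from the start codon, for the 10 members, and the dotted line separates the far from the near 250 bases. TAT1 has 7 copies, BAP2 and BAP3 6 and GNP1 5, all beyond 250 bases, PTR2 has 1 and DIP5 none. BAP2, PTR2 and DIP5 were the members called in a mutant with all 16 libraries.

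Among the members, GNP1 was the most abundant in every strain, with 148 ± 11.3 TPM in atg18∆, 124 ± 4.10 TPM in fab1∆ and 128 ± 14.9 TPM in vph1∆ (SD, n = 4 each) and 139 ± 14.0 TPM in wild type (SD, n = 3, without replicate 3). Its values did not overlap those of the next gene in any of these groups. SSY1, the sensor, was the lowest, at 5.07 to 7.58 TPM in mutant libraries and 5.69 to 7.39 TPM in wild type without replicate 3. In wild type, TAT1, LYP1 and BAP3 came next after GNP1, at means of 73.4, 72.3 and 70.4 TPM whose values overlapped from one to the next, followed by BAP2 at 55.8 and TAT2 at 44.7 TPM, which did not overlap the gene above. DIP5 and AGP1, at 23.2 and 20.7 TPM, overlapped, and PTR2 was at 11.1 TPM. The order was kept in fab1∆ and atg18∆ apart from BAP3 and LYP1, whose values overlapped. In vph1∆, BAP2 stood at the second place, with 85.5 ± 11.3 TPM (SD, n = 4), and overlapped BAP3 at 82.1 TPM. Summed over the 9 transporter genes, the members took 517 to 588 TPM in atg18∆, 486 to 522 TPM in fab1∆ and 475 to 608 TPM in vph1∆, against 490.2 to 548 TPM in wild type without replicate 3, so that the groups overlapped. The sum was 195 TPM in wild-type replicate 3.

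**Figure D3:**
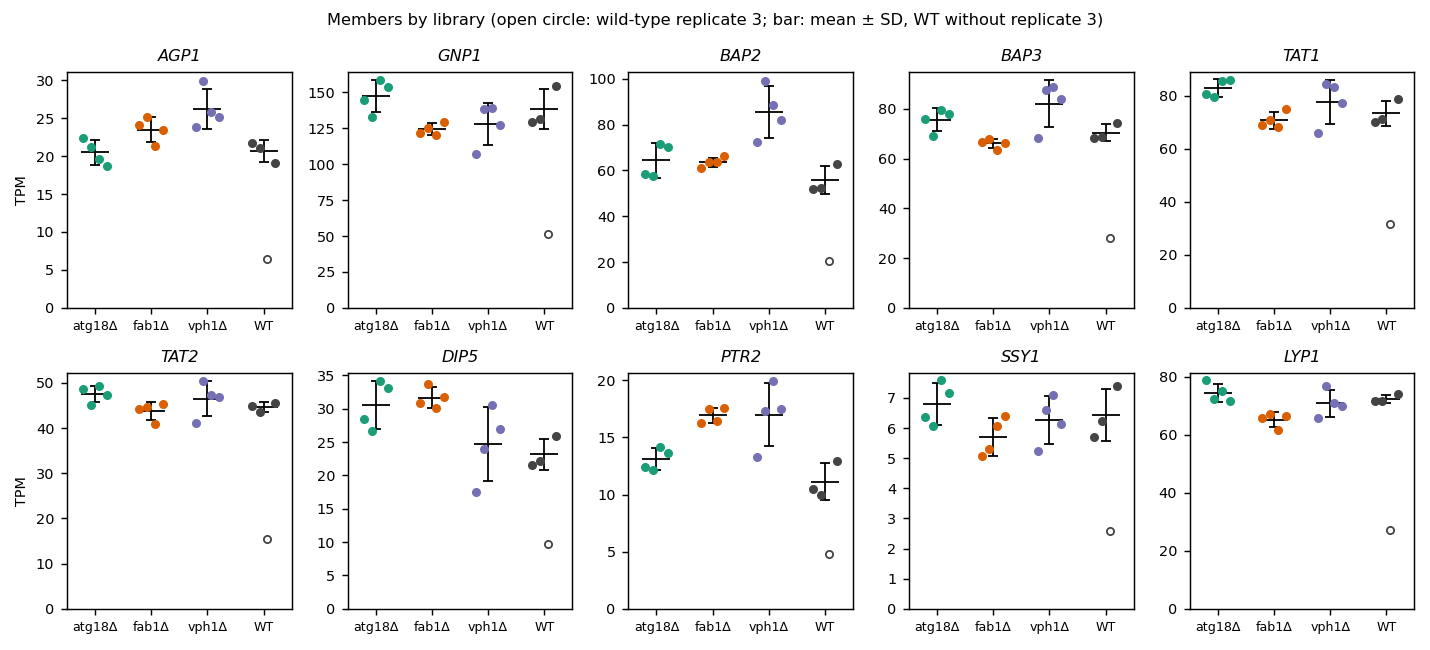
TPM of the 10 members in each of the 16 libraries, with atg18∆, fab1∆, vph1∆ and wild type (WT) from left to right. Points are libraries, the open circle is wild-type replicate 3, and bars give the mean ± SD (n = 4, and n = 3 for wild type without replicate 3). All 4 mutant libraries lie above every wild-type library for TAT1 and DIP5 in atg18∆, DIP5 and PTR2 in fab1∆, and AGP1, BAP2 and PTR2 in vph1∆. Of all genes tested, 4.89% in atg18∆, 32.6% in fab1∆ and 15.1% in vph1∆ do so.

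The first comparison asked whether any of these genes changed in the mutants, which the study describes as lacking vacuolar pH oscillations. In vph1∆ the study did not quantify them, because the fragmented vacuoles could not be tracked. PTR2 and DIP5 rose in fab1∆, PTR2 and BAP2 rose in vph1∆, and none passed the test in atg18∆. The test was limma's moderated test on log2(TPM + 1), adjusted by Benjamini-Hochberg over all 6404 genes at 0.05. In fab1∆, 2 of 10 members were called, beside 23.5% of all genes tested, and in vph1∆ 2 of 10, beside 4.87%. In atg18∆ it was 0 of 10, beside 0.0468% of all genes. An unadjusted p under 0.05 was found for 4 members in each of the 3 mutants. Of all 6404 genes, 405 had it in atg18∆, 2328 in fab1∆ and 1486 in vph1∆. Without wild-type replicate 3 the counts were 3 of 10 in fab1∆ (42.4% of all genes), 3 of 10 in vph1∆ (14.7%) and 0 of 10 in atg18∆ (0.0937%). In atg18∆ without it, 2 members had an unadjusted p under 0.05, beside 380 of all 6404 genes. The members' median log2 fold change was 0.29 in fab1∆, 0.40 in vph1∆ and 0.45 in atg18∆ with all libraries, beside 0.25, 0.27 and 0.27 over all genes tested. Without replicate 3 it was -0.04, 0.07 and 0.10, beside 0.07, 0.06 and 0.05.

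PTR2, the peptide transporter, had 16.3, 17.5, 16.4 and 17.6 TPM in fab1∆ libraries and 13.3, 17.3, 19.9 and 17.5 TPM in vph1∆ libraries, against 10.5, 9.93, 4.82 and 13.0 TPM in wild-type libraries. Every fab1∆ and vph1∆ library was above every wild-type library, and the lowest vph1∆ library, replicate 1, only just. The log2 fold change was 0.84 ± 0.20 (SE) in fab1∆ (limma adjusted p = 0.00666) and 0.83 ± 0.20 in vph1∆ (adjusted p = 0.0276). Without wild-type replicate 3 it was 0.57 ± 0.11 in both, a 1.49-fold and a 1.48-fold increase of TPM + 1 (adjusted p = 0.000681 and 0.00273). Of 29 other settings, PTR2 passed the threshold in 27 in fab1∆ and in 24 in vph1∆, with adjusted p between 1.6e-06 and 0.247 for fab1∆ and between 2.6e-05 and 0.41 for vph1∆, and it was positive in all of them. For every gene the 29 settings include leaving out single libraries of strains not compared, which cannot move the fold change. In atg18∆, PTR2 had 12.4, 12.2, 14.2 and 13.6 TPM, which overlapped the wild-type values (log2 fold change 0.49 ± 0.20, adjusted p = 0.294, and 0.22 ± 0.11, adjusted p = 0.898, without replicate 3).

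BAP2, a branched-chain amino acid permease, had 72.3, 99.1, 88.7 and 82.0 TPM in vph1∆ libraries, against 52.1, 52.5, 20.3 and 62.8 TPM in wild-type libraries. The groups did not overlap, with or without replicate 3. The log2 fold change was 0.96 ± 0.24 (SE; limma adjusted p = 0.0318), and 0.60 ± 0.10 (adjusted p = 0.00102) without replicate 3, a 1.52-fold increase of TPM + 1. It passed in 24 of 29 other settings (adjusted p from 5.6e-05 to 0.41) and was positive in all 29. In atg18∆ libraries BAP2 had 58.4, 57.4, 71.5 and 70.1 TPM, and in fab1∆ libraries 61.2, 63.6, 63.7 and 66.1 TPM. Both of these groups overlapped wild type, whose replicate 4 was at 62.8 TPM, and neither passed (adjusted p = 0.294 and 0.114, and 0.918 and 0.148 without replicate 3). With the length trend removed, however, BAP2 passed as higher in fab1∆ (0.30, limma adjusted p = 0.00581), as it did without wild-type replicate 4.

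DIP5, the glutamate and aspartate permease, had 30.8, 33.8, 30.1 and 31.8 TPM in fab1∆ libraries and 28.4, 26.6, 34.1 and 33.1 TPM in atg18∆ libraries, against 21.5, 22.1, 9.68 and 25.8 TPM in wild-type libraries. Both mutants were above every wild-type library. The log2 fold change was 0.73 ± 0.23 (SE) in fab1∆ (limma adjusted p = 0.0285), and 0.44 ± 0.14 (adjusted p = 0.0209) without replicate 3, and it passed in 23 of 29 other settings (adjusted p from 0.00064 to 0.271), with a positive value in all 29. In atg18∆ it was 0.68 ± 0.23 (adjusted p = 0.294), and 0.38 ± 0.14 (adjusted p = 0.597) without replicate 3, the largest of the members there. In vph1∆, DIP5 was spread from 17.5 to 30.5 TPM over the 4 libraries and overlapped wild type.

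The calls rested in part on single libraries. The count in fab1∆ was 1, PTR2 alone, without any one of the 4 fab1∆ libraries, and 3 without wild-type replicate 4, where BAP2 was the third. In vph1∆ it was 0 without vph1∆ replicate 2, 3 or 4, and 2 without replicate 1. Counting members whose 4 mutant libraries all lay above all 4 wild-type libraries, which does not use the spread, gave 2 in atg18∆ (TAT1 and DIP5), beside 4.89% of all genes, 2 in fab1∆ (DIP5 and PTR2), beside 32.6%, and 3 in vph1∆ (AGP1, BAP2 and PTR2), beside 15.1%. Leaving out wild-type replicate 3 gave the same counts, beside 5.11%, 35.8% and 16.7%. TAT1 in atg18∆ was at 80.7, 79.6, 85.7 and 85.8 TPM, against 70.1, 71.4, 31.5 and 78.8 TPM in wild type, and did not pass the test (adjusted p = 0.294, and 0.756 without replicate 3).

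**Figure D4:**
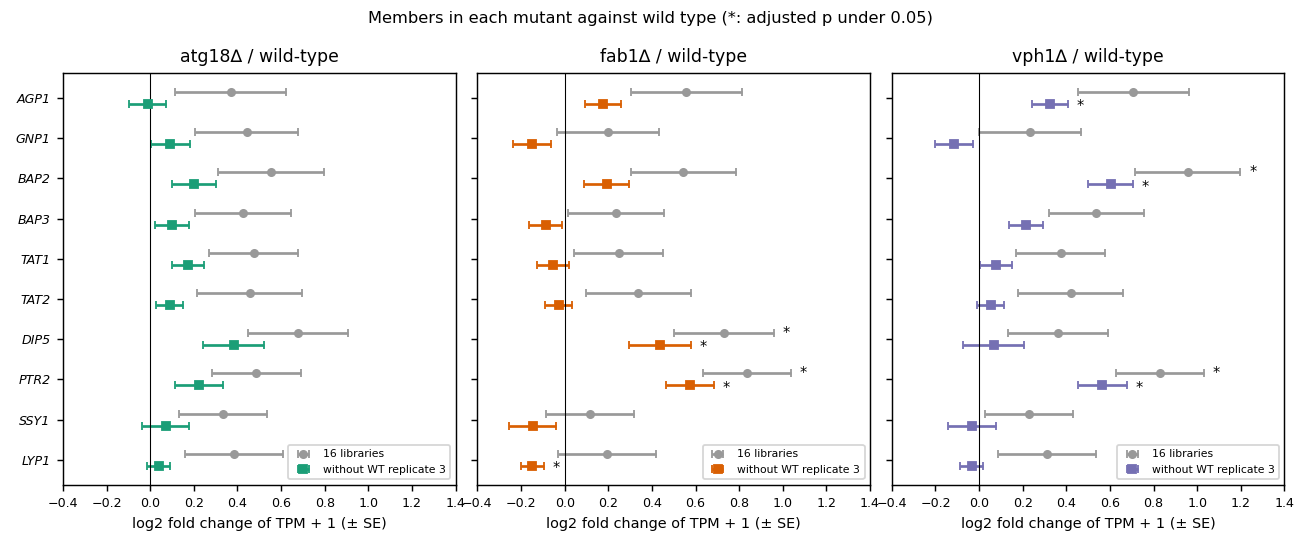
Log2 fold change of TPM + 1 (± SE) of each member in atg18∆, fab1∆ and vph1∆ over wild type, with all 16 libraries (grey circles) and without wild-type replicate 3 (coloured squares), and asterisks for an adjusted p under 0.05. All 30 grey points lie above 0. Without replicate 3 the values move left by 0.26 to 0.38, and PTR2 (fab1∆ and vph1∆), DIP5 (fab1∆) and BAP2 (vph1∆) keep their asterisk.

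AGP1, the broad-range permease, passed only without wild-type replicate 3. It had 23.8, 29.9, 25.8 and 25.2 TPM in vph1∆ libraries, against 21.8, 21.1, 6.50 and 19.1 TPM in wild-type libraries, without overlap. The log2 fold change was 0.71 ± 0.25 (SE; limma adjusted p = 0.128) with all libraries and 0.32 ± 0.08 (adjusted p = 0.0156) without replicate 3, which was the one of 29 settings in which it passed. In atg18∆ it was -0.01 ± 0.08 (adjusted p = 0.976) without replicate 3.

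LYP1, the lysine permease, went the other way in fab1∆ once replicate 3 was left out. It had 65.7, 67.2, 61.5 and 66.4 TPM in fab1∆ libraries, against 71.5, 71.6 and 73.9 TPM in wild-type replicates 1, 2 and 4 and 27.3 TPM in replicate 3. The log2 fold change was 0.19 ± 0.22 (SE; limma adjusted p = 0.566) with all 16 libraries and -0.15 ± 0.05 (adjusted p = 0.0315) without replicate 3. The direction also depended on the scaling. With all 16 libraries it was -0.14 after median scaling, -0.14 after quantile normalization and -0.046 with the length trend removed. LYP1 passed in 2 of 29 settings. BAP3, with 66.8, 67.8, 63.6 and 66.3 TPM in fab1∆ libraries, against 68.3, 68.5, 28.05 and 74.3 TPM in wild-type libraries, also lay under wild-type replicates 1, 2 and 4 in all 4 libraries but did not pass (adjusted p = 0.386 without replicate 3). The share of all genes that lay under these wild-type libraries in fab1∆ was not computed, so nothing is read from the lack of overlap.

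The number of members called lower in fab1∆ depended on the scaling. When libraries were scaled to a common median, 2 members were higher and 1, SSY1, was lower in fab1∆, and when replicate 3 was left out as well, DIP5 and PTR2 were higher and GNP1, BAP3, TAT1, TAT2, SSY1 and LYP1 were lower. In vph1∆ the same scaling without replicate 3 gave BAP2 and PTR2 higher and GNP1 lower. That combination was chosen after the data had been seen. The share of all genes called under these scalings was not computed, so nothing about the members is read from these counts.

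The second comparison set the mutants against each other, which uses no wild-type library for its values. With all 16 libraries no member passed between fab1∆ and atg18∆ (10.9% of all genes did), between vph1∆ and atg18∆ (0.671%) or between vph1∆ and fab1∆ (6.29%). No member had an unadjusted p under 0.05 in any of the 3, beside 1417, 418 and 1134 of all 6404 genes. Wild-type replicate 3 still entered through the shared spread: without it 5, 3 and 3 of 10 members passed, beside 47.7%, 12.1% and 41.1% of all genes. A fit of only the 8 libraries compared gave 6, 1 and 3, and the share of all genes was not computed for it.

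In fab1∆ against atg18∆ without replicate 3, PTR2 was higher (log2 fold change 0.35 ± 0.10 SE, limma adjusted p = 0.0114) and GNP1, BAP3, TAT1 and LYP1 were lower by small amounts. GNP1, the glutamine permease, had 122, 126, 121 and 129.7 TPM in fab1∆ libraries, against 145, 133, 159 and 154 TPM in atg18∆ libraries (log2 fold change -0.24 ± 0.08, adjusted p = 0.0235). TAT1, which carries tyrosine among others, had 68.9, 71.0, 68.1 and 75.1 TPM in fab1∆ libraries, against 79.6 to 85.8 TPM in atg18∆ libraries (-0.23 ± 0.07, adjusted p = 0.0134). BAP3 and LYP1 each differed by -0.19 (SE 0.07 and 0.05, adjusted p = 0.0423 and 0.00513). These 5 genes passed in 4 to 7 of 29 settings, and each kept its sign in all of them.

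BAP2 was higher in vph1∆ than in both other mutants when replicate 3 was left out. In that fit 12.1% of all genes passed against atg18∆ and 41.1% against fab1∆. The BAP2 values of 72.3 to 99.1 TPM in vph1∆ began only just above the 57.4 to 71.5 TPM of atg18∆ (log2 fold change 0.40 ± 0.09 SE, limma adjusted p = 0.0111). They also lay above the 61.2 to 66.1 TPM of fab1∆ (0.41 ± 0.09, adjusted p = 0.00322). Against fab1∆, BAP3 was also higher (0.30 ± 0.07, adjusted p = 0.00413) and DIP5 lower (-0.37 ± 0.13, adjusted p = 0.0344). Against atg18∆, AGP1 (0.34 ± 0.08, adjusted p = 0.00922) and PTR2 (0.34 ± 0.10, adjusted p = 0.0407) were higher in vph1∆. These calls passed in 3 to 5 of 29 settings against atg18∆ and in 6 to 7 of 29 against fab1∆, with the sign kept in all 29. In the fit of the 8 libraries compared, BAP2 and PTR2 did not pass against atg18∆ (adjusted p = 0.0553 and 0.108). PTR2 had nearly the same level in vph1∆ and fab1∆, with a difference of -0.01 ± 0.10 (adjusted p = 0.964).

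The genes that control the members were read from lists written by hand. Of 12 genes of SPS signalling, 1 rose in fab1∆, where 23.5% of all genes were called, and none passed in vph1∆ or atg18∆. The unadjusted p was under 0.05 for 1 gene in vph1∆ and for none in atg18∆, beside 1486 and 405 of all 6404 genes. The gene that rose was STP2, one of the 2 factors that act on permease genes, with 15.96, 15.6, 16.2 and 15.8 TPM in fab1∆ libraries, against 12.03, 12.1, 5.63 and 14.0 TPM in wild-type libraries (log2 fold change 0.57 ± 0.19 SE, limma adjusted p = 0.0426, and 0.31, adjusted p = 0.0112, without replicate 3). With a replicate block its adjusted p was 0.0613, and in a fit of only the 8 libraries compared it was 0.207. STP1, PTR3 and SSY5 did not pass in any mutant, with or without replicate 3. With all 16 libraries, SSY5 passed as lower in fab1∆ after median scaling (-0.27, limma adjusted p = 0.00463). It also did with the length trend removed (-0.15, adjusted p = 0.00971). The share of all genes called in these settings was not computed. Without replicate 3, the SPS list gave 2 higher genes in fab1∆, STP2 and ASI2 (0.21, adjusted p = 0.0404), and 1 lower, YCK2, a casein kinase of the pathway (-0.30, adjusted p = 0.0225). In that fit 42.4% of all genes were called in fab1∆. CUP9, the repressor of PTR2, and UBR1, whose product degrades Cup9, did not pass in any mutant against wild type, with or without replicate 3. With the length trend removed, UBR1 passed as higher in fab1∆ (0.11, limma adjusted p = 0.032). An unadjusted p under 0.05 was found for 1 of these 2 genes, in atg18∆ without replicate 3, beside 380 of all 6404 genes. Of 8 genes of permease ubiquitination and turnover, ECM21, an arrestin-like adaptor, was higher in fab1∆ (0.50 ± 0.17, adjusted p = 0.0475, 0.036 without replicate 3 and 0.0722 with a replicate block), 1 of 8 beside 23.5% of all genes. Its adjusted p was 0.198 in a fit of only the 8 libraries compared and 0.0697 after median scaling. None passed in the other mutants. The unadjusted p was under 0.05 for 3 in vph1∆ and none in atg18∆, beside 1486 and 405 of all 6404 genes. LDB19, another adaptor, was lower in fab1∆ without replicate 3 (-0.22, adjusted p = 0.0435), beside 42.4% of all genes called. SHR3 did not pass in any mutant against wild type with or without replicate 3, and was lower in fab1∆ with the length trend removed (-0.36, adjusted p = 0.00669).

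Of 9 other amino acid permeases outside the set, 5 passed as higher in fab1∆, where 23.5% of all genes were called, 2 in vph1∆ (4.87%) and none in atg18∆ (0.0468%). In atg18∆ none had an unadjusted p under 0.05 either, beside 405 of all 6404 genes. Without wild-type replicate 3, 4 were higher and 2 lower in fab1∆ (42.4% of all genes), and 2 were higher and 1 lower in vph1∆ (14.7%). ALP1 is among the higher genes of both mutants but met the expression filter only through them, with means of 1.42 TPM in fab1∆ and 1.80 TPM in vph1∆, against 0.929 TPM in atg18∆ and 0.827 TPM in wild type, so nothing is read from its calls. PUT4, the proline permease, had 18.9, 19.0, 14.1 and 15.6 TPM in fab1∆ libraries and 2.83, 2.68, 1.62 and 2.72 TPM in vph1∆ libraries, against 7.84, 6.53, 1.73 and 4.83 TPM in wild-type libraries. It was the gene of this list with the largest change, with a log2 fold change of 1.64 ± 0.27 (SE; limma adjusted p = 0.000292) in fab1∆, and 1.28 (adjusted p = 1.4e-05) without replicate 3. In vph1∆ it was -0.74 ± 0.27 (adjusted p = 0.129), and -1.09 (adjusted p = 0.000316) without replicate 3. Between vph1∆ and fab1∆ the difference was -2.37 ± 0.27 (adjusted p = 1.8e-05).

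GAP1, the general amino acid permease, had 15.1, 15.5, 12.2 and 14.2 TPM in fab1∆ libraries, against 7.25, 6.39, 2.32 and 5.31 TPM in wild-type libraries (log2 fold change 1.345 ± 0.21 SE, limma adjusted p = 0.000225, and 1.06, adjusted p = 3.1e-06, without replicate 3). AGP2 and AGP3 also rose in fab1∆ (0.58, adjusted p = 0.04, and 0.55, adjusted p = 0.0119), and AGP3 rose in vph1∆ (0.54, adjusted p = 0.0444), at levels of 1.87 to 6.84 TPM in those libraries. Without replicate 3 these values were 0.30, 0.37 and 0.36, and all 3 passed. With a replicate block, AGP2 in fab1∆ and AGP3 in vph1∆ no longer passed (adjusted p = 0.0533 and 0.0602). In a fit of only the 8 libraries compared neither passed (adjusted p = 0.198 and 0.357), nor did AGP3 in fab1∆ (0.0935). MMP1 and SAM3, which carry S-methylmethionine and S-adenosylmethionine, had log2 fold changes of -0.19 and -0.17 in fab1∆ (adjusted p = 0.584 and 0.619) and passed as lower without replicate 3 (-0.51, adjusted p = 0.002, and -0.50, adjusted p = 0.000843). With all 16 libraries they passed after median scaling (-0.52 and -0.50, adjusted p = 0.00129 and 0.00117) and with the length trend removed (-0.45 and -0.42, adjusted p = 0.00057 and 0.000368). SAM3 had 46.6, 46.1, 42.5 and 44.8 TPM in fab1∆ libraries, against 61.7, 60.5, 25.4 and 69.6 TPM in wild-type libraries. CAN1, the arginine permease, did not pass in any mutant.

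**Figure D5:**
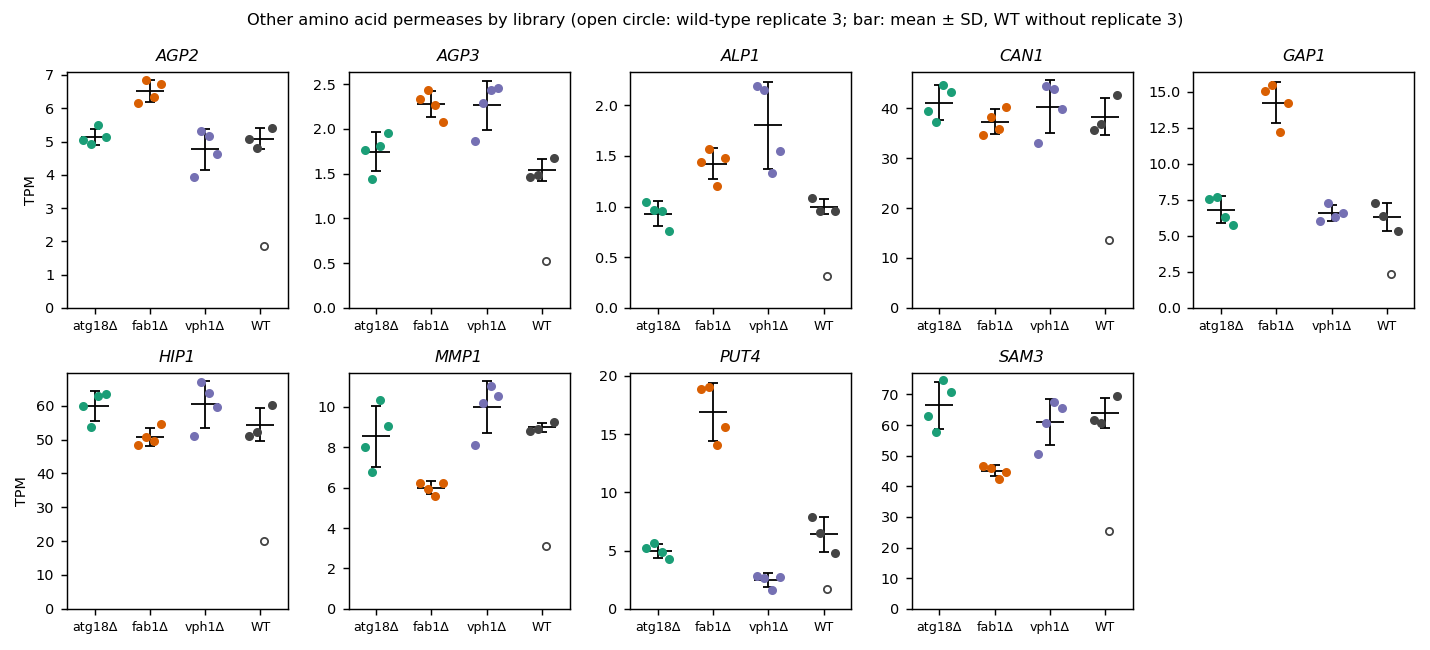
TPM of the 9 other amino acid permeases in each library, in the same layout as for the members, with the open circle for wild-type replicate 3 and bars for the mean ± SD (n = 4, and n = 3 for wild type). GAP1 and PUT4 are highest in fab1∆, where PUT4 has 14.1 to 19.0 TPM against 1.62 to 2.83 TPM in vph1∆, and MMP1 and SAM3 are lower in fab1∆ than in wild-type replicates 1, 2 and 4.

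For the 3 members that passed with all libraries, the genes outside the set with the most similar pattern were taken by Pearson's r of log2(TPM + 1) over the 15 libraries without wild-type replicate 3. These libraries come from 4 strains in 1 medium, so the values are descriptions. PTR2 was most like ARO3 (r = 0.970), an enzyme that starts aromatic amino acid synthesis, CHS7 (0.961) and SMF1 (0.959), a metal ion transporter. BAP2 was most like EHD3 (0.964), AAP1 (0.959) and PPZ1 (0.954). DIP5 was most like EHT1 (0.935), RPT4 (0.913) and CHO1 (0.906), which makes phosphatidylserine. With all 16 libraries, CHS7 and SMF1 stayed among the 3 nearest for PTR2 and PPZ1 for BAP2, and none of the 3 for DIP5 did.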

How the data were processed

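The authors quantified transcripts with Salmon (version 0.9.1 in the study's methods, 0.8.1 in the submitters' processing notes) on sacCer3 transcripts and deposited TPM values, used here as deposited. They sum to 1000000 per library and hold no read numbers, so depth is unknown and precision comes from the spread between libraries. The labels give polyA RNA, whereas the protocol describes no polyA selection.

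Groups came from the labels. The 6404 genes averaging 1 TPM or more over the libraries were fitted as log2(TPM + 1) with limma 3.58.1 (R 4.3.3), using strain means and a variance trend. Folds are on the TPM + 1 scale and understate changes of low genes. The study's sleuth test needs read-level files and was replaced, and its methods leave out 1 unnamed wild-type sample for RNA quality, so all 16 libraries were kept in the main fit. Same-numbered fab1∆ and wild-type libraries deviated together in every pair (r of 0.13 to 0.246), so that a fit with a replicate block is given where it changes a call. The script was tested on simulated data. Sequences came from RefSeq R64, in which 6011 of 6844 identifiers had a match.

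The members and lists were chosen with earlier results of these data known. Genes named were the members, PTR3, SSY5, STP1, STP2, GAP1, CAN1, list genes past the threshold in a mutant, and the 3 genes most like each called member. CUP9, UBR1, SHR3, YCK2, ASI2, LDB19, MMP1 and SAM3 were added after their values were seen. Alternatives were pseudocounts of 0.1 and 5, no filter or one at 10 TPM, scaling to the median, quantile normalization, fitting only the compared strains (pairwise fit), no variance trend, a replicate block, and leaving out single libraries. Removal of a length trend (loess, span 0.5), median scaling without wild-type replicate 3, replicates 1 and 2 or 3 and 4 alone, and the farther upstream windows were added after the data were seen.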

Additional observations from a re-analysis of the deposited data

Results flagged for a closer look

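In 3 members and in the summed level of the 9 transporter genes, wild-type replicate 3 lay far below the other 3 wild-type libraries, with a gap to the nearest of them above Dixon's critical value for 4 samples. The low values were 28.05 TPM for BAP3, 15.5 TPM for TAT2, 27.3 TPM for LYP1 and 195 TPM for the sum. These were 4 of 44 groups examined, and chance alone marks about 1 in 20 when groups are independent. The groups here are not, since all 4 flags fall on the same library and the sum includes the 3 flagged genes. No conclusion is drawn from the count.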

How the results depend on the processing

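The counts of members past the threshold moved as follows. With a fit of the compared strains alone (pairwise fit), the count was 0 in fab1∆ and 0 in vph1∆ against wild type, 6 in fab1∆ against atg18∆, 1 in vph1∆ against atg18∆ and 3 in vph1∆ against fab1∆. Between mutants in that same order, median scaling gave 5, 1 and 3, quantile normalization 5, 1 and 3, removal of the length trend 2, 3 and 3, and replicates 1 and 2 alone 1, 1 and 2, where all libraries gave 0. Median scaling without wild-type replicate 3 gave 8 in fab1∆ and 3 in vph1∆ against wild type and 7, 5 and 4 between mutants. Against wild type, removal of the length trend gave 3 in fab1∆, with BAP2 added, and 3 in vph1∆, with BAP3 added (0.22, limma adjusted p = 0.0386). Replicates 3 and 4 alone gave 0 in all 6 comparisons. With each library left out in turn the counts were 1 to 3 for fab1∆ and 0 to 3 for vph1∆ against wild type, and 0 to 5, 0 to 3 and 0 to 3 between mutants. The highest of each came without wild-type replicate 3, and for fab1∆ against wild type also without wild-type replicate 4. A filter at a mean of 10 TPM left out SSY1 and changed no count. In atg18∆ against wild type the count was 0 in every setting run. Shares of all genes called were taken only for the fits with all 16 libraries and without wild-type replicate 3. The counts under other settings have no such share beside them. The cause of these shifts was not tested.

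None of the members whose log2 fold change turned its sign was called in the main comparison with all 16 libraries. With all 16 libraries, SSY1 passed as lower in fab1∆ after median scaling (adjusted p = 0.0284) and quantile normalization (adjusted p = 0.0407). With median scaling, the values were GNP1 -0.13, BAP3 -0.094, TAT1 -0.082, SSY1 -0.21 and LYP1 -0.14 in fab1∆ against wild-type, GNP1 -0.073 and SSY1 -0.077 in vph1∆ against wild-type, PTR2 0.016 in vph1∆ against fab1∆. With quantile normalization, the values were GNP1 -0.10, BAP3 -0.10, TAT1 -0.086, SSY1 -0.19 and LYP1 -0.14 in fab1∆ against wild-type, SSY1 -0.062 in vph1∆ against wild-type, PTR2 0.015 in vph1∆ against fab1∆. With the length trend removed, the values were GNP1 -0.021, BAP3 -0.0077, SSY1 -0.046 and LYP1 -0.046 in fab1∆ against wild-type, GNP1 -0.087, SSY1 -0.093 and LYP1 -0.0091 in vph1∆ against wild-type, BAP2 0.063 in fab1∆ against atg18∆, GNP1 -0.066 and SSY1 -0.047 in vph1∆ against fab1∆. With median scaling and wild-type replicate 3 left out, the values were AGP1 -0.074 and LYP1 -0.022 in atg18∆ against wild-type, GNP1 -0.26, BAP3 -0.20, TAT1 -0.16, TAT2 -0.14, SSY1 -0.26 and LYP1 -0.26 in fab1∆ against wild-type, GNP1 -0.20, TAT1 -0.011, TAT2 -0.033, DIP5 -0.019, SSY1 -0.12 and LYP1 -0.12 in vph1∆ against wild-type, PTR2 0.016 in vph1∆ against fab1∆. With replicates 1 and 2 alone, the values were GNP1 -0.077, BAP3 -0.023, TAT1 -0.017, SSY1 -0.17 and LYP1 -0.11 in fab1∆ against wild-type, GNP1 -0.10, DIP5 -0.087, SSY1 -0.015 and LYP1 -0.014 in vph1∆ against wild-type, BAP2 0.11 in fab1∆ against atg18∆, GNP1 -0.020 in vph1∆ against fab1∆. With replicates 3 and 4 alone, the values were DIP5 -0.11 in fab1∆ against atg18∆, PTR2 0.13 in vph1∆ against fab1∆. With each library left out in turn, the same genes ranged over AGP1 -0.012 to 0.52 and LYP1 0.039 to 0.51 in atg18∆ against wild-type, GNP1 -0.15 to 0.37, BAP3 -0.088 to 0.37, TAT1 -0.051 to 0.38, TAT2 -0.028 to 0.47, SSY1 -0.15 to 0.26 and LYP1 -0.15 to 0.32 in fab1∆ against wild-type, GNP1 -0.12 to 0.40, TAT1 0.076 to 0.51, TAT2 0.053 to 0.55, DIP5 0.068 to 0.51, SSY1 -0.033 to 0.38 and LYP1 -0.034 to 0.43 in vph1∆ against wild-type, BAP2 -0.061 to 0.043 and DIP5 -0.0069 to 0.11 in fab1∆ against atg18∆, TAT2 -0.076 to 0.019 in vph1∆ against atg18∆, GNP1 -0.0078 to 0.12, PTR2 -0.083 to 0.10 and SSY1 0.059 to 0.18 in vph1∆ against fab1∆.

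A replicate block changed no call of a member, with counts of 2 in fab1∆, 2 in vph1∆ and 0 in the other 4 comparisons. Same-numbered libraries of different strains correlated in their deviations from the strain means at -0.125 to 0.444, over 0.1 in 16 of 24 pairs, and 8 of 16 libraries correlated best with their own number, and only fab1∆ with wild type had all 4 pairs over 0.1. For the other comparisons the numbers were not taken as pairs. Among the other lists the block ended the calls of STP2, ECM21 and AGP2 in fab1∆ and of AGP3 in vph1∆. The pairwise fit ended these calls too (limma adjusted p = 0.207, 0.198, 0.198 and 0.357) and that of AGP3 in fab1∆ (0.0935). GAP1 and PUT4 in fab1∆ still passed in it (0.0125 and 0.0122). After median scaling, ECM21 in fab1∆ (0.0697) and AGP3 in vph1∆ (0.056) did not pass. Counting gapped columns, protein identity was 72.1% for Bap2 and Bap3 and 65.0% for Agp1 and Gnp1. Depth is unknown, so no counting error can be given.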
